A study of Mus musculus with 5 samples.

Results

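The Dlx genes, the vertebrate relatives of the fly gene Distal-less, encode homeodomain transcription factors and number 6 in the mouse, Dlx1 to Dlx6. They are described here in neuroepithelial cells (NECs), the dividing epithelium of the early neural tube, as 6 of the 21801 genes of the table. The members were chosen by symbol, with the levels of Dlx5 and Dlx2 in these libraries already known, so their levels and the differences between them are a description and carry no test. The study holds 1 group of 5 libraries, replicates 1 to 5, labelled as mouse neural progenitor cells with the source NEC, and its text places purified NECs in the developing neocortex. No strain, genotype, treatment, age or purification method is given in the sources used here, and nothing says that the replicates came from separate animals, so the spread between them may be technical.

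Dlx genes lie in pairs that are transcribed towards each other, and the enhancers between the genes of a pair can act on both of its members. In the forebrain Dlx1, Dlx2, Dlx5 and Dlx6 are known for their part in ventral progenitors and GABA neurons. Outside it, Dlx5 and Dlx6 act in the lower part of the pharyngeal arches, in placodes and at the rim of the neural plate, and Dlx3 and Dlx4 in surface ectoderm, placenta and mineralised tissue.

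All 6 genes shared 1 structural feature. The homeobox, taken as the 180 bases that surround the codons of the recognition helix, was interrupted by an intron after base 132 in each gene, which left 132 bases in exon 2 and 48 in exon 3 of the GENCODE M21 transcripts (genome build mm10). The last 60 bases of each homeobox, which hold the recognition helix that reads the DNA, are shown to let the members be compared base by base. Capitals mark the bases that differ from Dlx5.
Dlx5: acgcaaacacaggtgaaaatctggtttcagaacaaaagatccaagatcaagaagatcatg
Dlx6: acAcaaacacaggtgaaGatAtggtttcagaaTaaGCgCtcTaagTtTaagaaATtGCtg
Dlx3: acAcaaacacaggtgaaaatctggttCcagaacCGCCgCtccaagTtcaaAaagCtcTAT
Dlx4: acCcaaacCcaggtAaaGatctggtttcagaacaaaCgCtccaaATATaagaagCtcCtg
Dlx2: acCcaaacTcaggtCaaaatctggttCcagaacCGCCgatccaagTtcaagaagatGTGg
Dlx1: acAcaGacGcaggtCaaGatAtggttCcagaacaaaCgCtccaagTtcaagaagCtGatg
These bases lie at chr6:6879526-6879537 and chr6:6878441-6878488 for Dlx5 (minus strand) and chr6:6865260-6865271 and chr6:6867041-6867088 for Dlx6 (plus strand). They lie at chr11:95121887-95121898 and chr11:95123409-95123456 for Dlx3 (plus strand), chr11:95141789-95141800 and chr11:95141422-95141469 for Dlx4 (minus strand), chr2:71545384-71545395 and chr2:71544877-71544924 for Dlx2 (minus strand) and chr2:71531145-71531156 and chr2:71532264-71532311 for Dlx1 (plus strand). In this stretch each of the other members differed from Dlx5 at 12 to 14 bases.

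Over the whole homeobox, identity ran from 66.1% for Dlx3 and Dlx6 to 81.7% for Dlx2 and Dlx3. The genes of 1 locus were not the most alike: Dlx1 and Dlx2 shared 73.9% of these bases, Dlx5 and Dlx6 73.3% and Dlx3 and Dlx4 71.7%. By descent the family falls into Dlx2, Dlx3 and Dlx5 on one side and Dlx1, Dlx4 and Dlx6 on the other. Identity was 71.7% to 81.7% over the 6 pairs within these groups and 66.1% to 76.1% over the 9 pairs across them, so the ranges overlapped. In the full transcripts, no stretch of 75 bases, the read length, matched between members with fewer than 10 mismatches, and the longest identical run was 23 bases. Reads of 1 Dlx gene could thus be told from those of another.

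Levels are given as FPKM, fragments per kilobase of transcript and per 1000000 mapped reads. At the Dlx5/6 locus (chromosome 6, 6863334 to 6882085), Dlx5 stood at 16.1, 40.4, 25.5, 21.3 and 22.4 FPKM in replicates 1 to 5, a mean of 25.1 ± 9.18 (SD, n = 5). Replicate 2 was high and replicate 1 low. Its partner Dlx6, which is known to act together with Dlx5 in the arches and in GABA neurons, was listed at 0.917, 2.13, 0.649, 1.19 and 1.04 FPKM, a mean of 1.19 ± 0.56. Replicate 2 was again high, and replicate 3 was low. Every Dlx5 value lay above every Dlx6 value, and within a library Dlx5 was 17.6 to 39.2 times as abundant per length.

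At the Dlx3/4 locus (chromosome 11, 95120119 to 95146263), Dlx3, a factor of epidermis, hair and placenta, stood at 1.36, 2.46, 2.76, 1.59 and 1.86 FPKM in replicates 1 to 5, a mean of 2.01 ± 0.59. Dlx4 was listed at 1.27, 1.68, 1.27, 1.03 and 1.18 FPKM, a mean of 1.29 ± 0.24. Dlx3 was the higher gene in 5 of 5 libraries, but the ranges of the genes overlapped.

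The Dlx1/2 locus (chromosome 2, 71528113 to 71546754) was the lowest. Dlx2, which with Dlx1 drives the ventral forebrain programme, was listed at 0.116, 0.151, 0.256, 0.140 and 0.171 FPKM, a mean of 0.167 ± 0.054. Dlx1 was listed at 0.0137, 0.0627, 0, 0.0111 and 0.0272 FPKM. Every Dlx2 value exceeded every Dlx1 value. The Dlx1 mean of 0.0229 FPKM rested largely on replicate 2 and was 0.0130 without it.

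**Figure D1:**
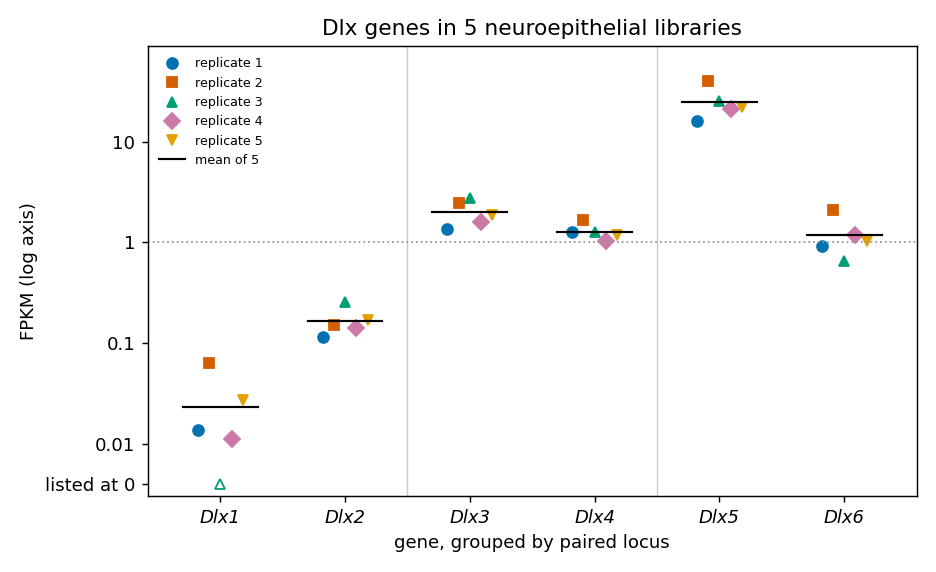
Level of each Dlx gene in FPKM (log axis) in each of the 5 libraries, with 1 symbol per replicate, bars at the mean and an open symbol for the value listed at 0. Dlx5 sits between 16.1 and 40.4 FPKM, above every value of the other members, and Dlx1 and Dlx2 sit below the dotted line at 1 FPKM in each library.

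Ordered by mean level, Dlx5 came first, followed by Dlx3, Dlx4, Dlx6, Dlx2 and Dlx1. The neighbours Dlx3 and Dlx4, and Dlx4 and Dlx6, had overlapping ranges, whereas Dlx5 lay apart from Dlx3, Dlx6 from Dlx2 and Dlx2 from Dlx1 in every library. Dlx5 stood at place 3746 of all genes by mean FPKM, with 82.8% of genes below it, and Dlx1 at place 17662, a place that depends on replicate 2 as its mean does.

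Depth set what could be told within each gene. The steps between low values implied 20.6 to 28.4 M reads behind the unit (M, 1000000). In the 2473-base transcript of Dlx2 its 5 values then stood for 6, 9, 12, 9 and 9 reads, each within 0.00806 of a whole number, and the exact Poisson intervals (95%) of all 5 libraries overlapped, from 0.0424 to 0.251 FPKM in replicate 1 up to 0.132 to 0.447 FPKM in replicate 3. Differences in Dlx2 between libraries were not detectable at this depth. Dlx1 has 6 annotated transcripts, and the longest, of 4111 bases, gave 1.23, 6.42, 0, 1.23 and 2.46 reads. Its 3385-base transcript gave 1.00, 5.23, 0, 1.00 and 2.00 reads, and there the interval for the 0 in replicate 3 reaches 0.0561 FPKM. In that transcript the intervals of Dlx1 and Dlx2 were separate in replicates 3 and 4 and overlapped in replicates 1, 2 and 5. Reads carried no molecular identifiers, so these intervals cover counting error only.

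Of the members with more reads, Dlx5, Dlx6 and Dlx3 varied by more than that. In its 1423-base transcript Dlx5 rested on 450 reads in replicate 1 (interval 14.6 to 17.6 FPKM) and on 1295 in replicate 2 (38.2 to 42.7 FPKM). Dlx6 had intervals of 0.428 to 0.944 FPKM in replicate 3 and 1.75 to 2.55 in replicate 2 in its 2216-base transcript, and Dlx3 of 1.07 to 1.71 FPKM in replicate 1 and 2.32 to 3.26 in replicate 3. With the 2282-base transcript of Dlx4, Dlx3 and Dlx4 had separate intervals in replicates 2 and 3 and overlapping ones in replicates 1, 4 and 5. With its 1593-base transcript, the Dlx4 interval in replicate 2 reached 2.15 FPKM and overlapped that of Dlx3, which began at 2.09 FPKM. Between libraries Dlx4 was less clear. In its 2282-base transcript the interval of replicate 2 began at 1.36 FPKM, just above the end of that of replicate 4 at 1.33. In its 1593-base transcript the 2 intervals overlapped, beginning at 1.28 FPKM in replicate 2 and ending at 1.41 in replicate 4.

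Per locus, the summed level was 26.3 ± 9.65 FPKM (SD, n = 5) for Dlx5/6, 3.29 ± 0.75 for Dlx3/4 and 0.190 ± 0.051 for Dlx1/2, which made 88.3%, 11.1% and 0.636% of the family's FPKM. The sums of the loci did not overlap: 17.0 to 42.5, 2.62 to 4.14 and 0.129 to 0.256 FPKM. The pairs also differed in balance. Dlx5 held 95.5% ± 1.2 of its locus' sum, and Dlx3 60.3% ± 5.93 of its own. The share of Dlx1 ran from 0% in replicate 3 to 29.3% in replicate 2.

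As log2(FPKM + 1), which shrinks the differences of genes near or under 1 FPKM, Dlx5 exceeded Dlx6 by 3.55 ± 0.33 and Dlx3 exceeded Dlx4 by 0.38 ± 0.24, each in 5 of 5 libraries. Dlx1 minus Dlx2 was -0.19 ± 0.08, with Dlx1 lower in 5 of 5. The difference of Dlx3 minus Dlx4 ran from 0.06 in replicate 1 to 0.73 in replicate 3. Between loci, Dlx5/6 exceeded Dlx3/4 by 2.62 ± 0.30 and Dlx1/2 by 4.46 ± 0.43, and Dlx3/4 exceeded Dlx1/2 by 1.84 ± 0.19, again in 5 of 5 libraries each. With a pseudocount of 0.1 FPKM in place of 1, Dlx1 minus Dlx2 became -1.12 and Dlx3/4 minus Dlx1/2 became 3.54.

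The layout was the same at each locus. The genes of a pair pointed at each other across 9426 bases at Dlx1/2, 15150 bases at Dlx3/4 and 9236 bases at Dlx5/6. Genes on the opposite strand share exonic bases with 3 members: 335 exonic bases of Dlx1 (6.21%) are shared with Dlx1as, 79 of Dlx4 (2.42%) with Dlx4os and 104 of Dlx6 (4.38%) with Dlx6os2, which the annotation types as TEC (a transcript awaiting experimental evidence) and not as antisense. The antisense gene Dlx6os1 spans Dlx6 and shares 0 exonic bases with it. The labels do not say that strand was kept, so reads in the shared bases cannot be assigned to 1 strand, and the opposite-strand genes themselves were not analysed here. Dlx5, Dlx3 and Dlx2 share no exonic base with an annotated gene.

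Genes beside the pairs did not follow the order of the pairs. The nearest 2 genes of the table on each side of the 3 loci made 12 neighbours, of which 11 lay above 1 FPKM and 1 below (limma's moderated test, Benjamini-Hochberg adjusted p under 0.05). Over all 19706 genes tested 52.3% lay above that level and 41.4% below. Metap1d, a mitochondrial methionine aminopeptidase that ends 2918 bases before Dlx1, stood at 15.5 ± 2.05 FPKM, between 12.6 and 17.7 in the 5 libraries, beside the lowest pair. On the other side of that pair Itga6, a laminin receptor subunit 198861 bases away, stood at 31.7 ± 3.92 FPKM. Itga3 (5.12 ± 0.97), 43317 bases from Dlx3, was closer in level to its locus, and Tac4, a tachykinin precursor on the Dlx4 side, was the 1 gene below. The acetyltransferases Hat1 (335 ± 32.8) and Kat7 (41.7 ± 1.16) were the outer neighbours on the Dlx1 and Dlx4 sides. Beside Dlx5/6, Acn9, a factor for assembly of succinate dehydrogenase 73918 bases from Dlx5, stood at 8.04 ± 0.98 FPKM and the proteasome subunit Shfm1, 284670 bases from Dlx6, at 159 ± 5.86. The outer neighbours were the tachykinin precursor Tac1 (2.19 ± 0.74) and the mitochondrial carrier Slc25a13 (53.8 ± 4.46). The pyruvate dehydrogenase kinases Pdk1 (8.96 ± 1.83) and Pdk2 (2.54 ± 0.98) lay beyond Itga6 and Itga3.

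**Figure D2:**
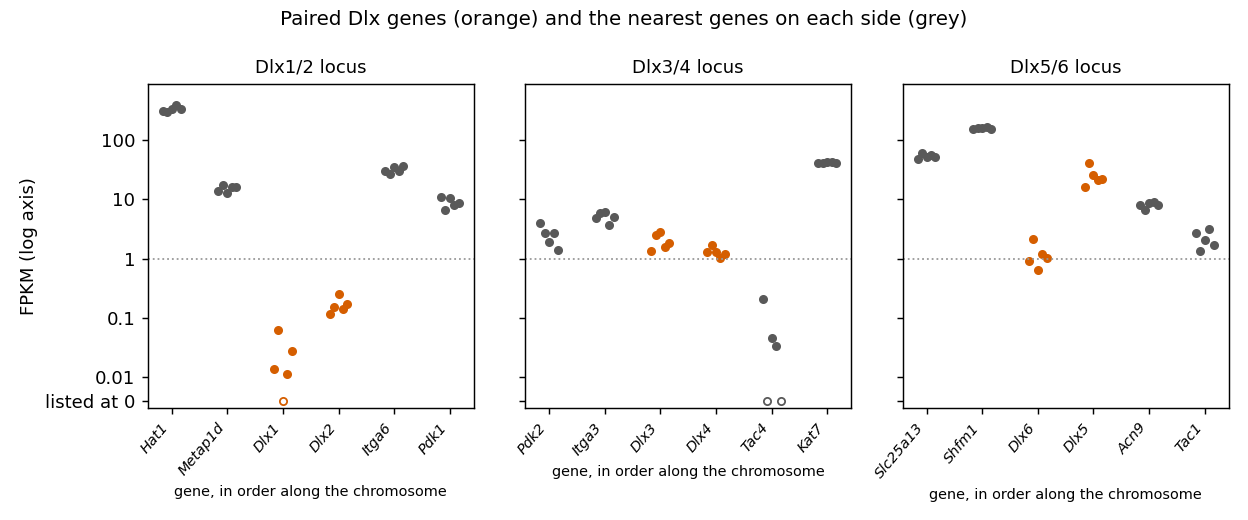
Level in FPKM (log axis) of the paired Dlx genes (orange) and of the nearest 2 genes on each side (grey), in order along the chromosome, with 1 point per library and open points for values listed at 0. Dlx1 and Dlx2 lie below 1 FPKM between Metap1d at 15.5 FPKM and Itga6 at 31.7 FPKM.

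Homeobox genes were searched for by sequence, to set the family against others of its kind. In-frame codons of the recognition helix, for tryptophan, phenylalanine, any residue, asparagine, lysine or arginine, and arginine, were found in the coding sequence of 166 genes of the table, the 6 Dlx genes among them. The match is by letters only, so it can take in a gene with no homeobox and miss homeobox genes with another helix. Of the 160 others, 146 were above 0 in at least 1 library, and of those 32 (21.9%) lay above 1 FPKM and 105 (71.9%) below by limma's adjusted p, against 52.3% and 41.4% of all genes tested. Dlx5 took place 4 of the 166 by mean level, after Otx2 (85.1 ± 12.9 FPKM) and Pax6 (64.6 ± 7.64), both factors of forebrain progenitors, and Pou2f1 (39.1 ± 4.43). The range of Dlx5 overlapped that of Pou2f1, at 33.5 to 45.8 FPKM, and that of Alx1, a factor of cranial mesenchyme that came next at 23.6 ± 11.1. Dlx3 took place 30, Dlx4 39, Dlx6 41, Dlx2 58 and Dlx1 105.

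**Figure D3:**
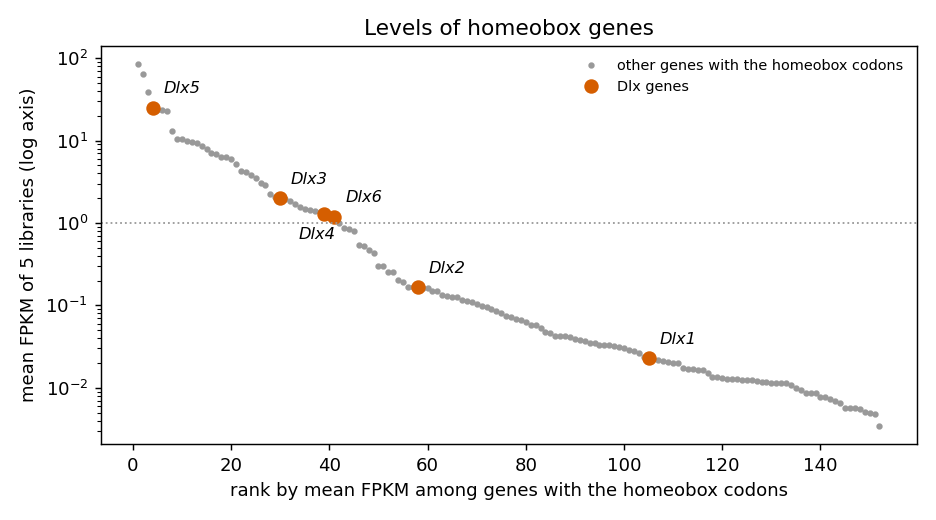
Mean FPKM of 5 libraries (log axis) against rank for genes with the homeobox codons and a mean above 0, with Dlx genes as large orange points and the dotted line at 1 FPKM. Dlx5 is at rank 4, and Dlx2 and Dlx1, at ranks 58 and 105, are under the line.

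Among genes that act beside Dlx factors in ventral forebrain progenitors, 4 of 13 lay above 1 FPKM and 8 below (limma, adjusted over all genes, here and for the lists that follow), against 52.3% and 41.4% of all genes tested, with a median level of 0.437 FPKM against 1.79 over all genes tested. List totals and medians, here and below, take in genes listed at 0 in all 5 libraries. Such genes were not tested and are left out of the values over all genes. The zinc finger factor Sp8 (29.6 ± 4.63) and the TALE factor Meis2 (18.4 ± 1.76) were highest. Gsx2, which lies upstream of Dlx1 and Dlx2 in the ganglionic eminence, had 0.0391, 0.0341, 0.0433, 0.0963 and 0 FPKM in replicates 1 to 5, and its relative Gsx1 had 0.0278 in replicate 1 and 0 in the others. Gsx2 and Dlx2 both lay under 1 FPKM in every library, and Dlx5 lay above it in every library. A link between these levels was not tested.

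In the list of GABA neuron genes 3 of 12 lay above and 7 below, against 52.3% and 41.4% of all genes tested, with a median of 0.137 FPKM. Cxcr4, a chemokine receptor (5.18 ± 0.73), and Calb1, a calcium-binding protein (4.98 ± 1.73), were highest, and the vesicular GABA transporter Slc32a1 was listed at 0 in all 5 libraries. The GABA-making enzymes Gad1 (0.439 ± 0.197) and Gad2 (0.999 ± 0.299) were called below and neither way.

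Genes known downstream of Dlx5 and Dlx6, or beside them, in the pharyngeal arches counted 5 of 14 above and 6 below, against 52.3% and 41.4% of all genes tested, with a median of 0.293 FPKM. The transcriptional regulator Cited1 (32.6 ± 8.73) and the homeobox factor Alx4 (13.1 ± 6.17) were highest. Hand1 and Gsc were listed at 0 in all 5 libraries, and Hand2, a described target of Dlx5 and Dlx6, at 0.0215, 0.0188, 0, 0 and 0.0213 FPKM. A list of signalling genes upstream of Dlx genes held ligands, receptors and others such as Gli3, Mef2c and Ece1. Of these 12 of 15 lay above and 3 below, against 52.3% and 41.4% of all genes tested, with a median of 10.1 FPKM. Fgfr1 (35.9 ± 2.44) and the Hedgehog effector Gli3 (30.9 ± 1.82) were highest, Shh (0.349 ± 0.077) was lowest, and Ednra, the endothelin receptor that turns on Dlx5 and Dlx6 in the arches, stood at 17.3 ± 5.65 FPKM with its ligand Edn1 at 2.88 ± 0.63.

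The counts of the next lists are to be read against the 52.3% above and 41.4% below over all genes tested. In the list of bone genes, several of them described targets of Dlx5 or Dlx3, 1 of 8 lay above and 5 below. That gene was Alpl, alkaline phosphatase, at 31.2 ± 6.69 FPKM, followed by Spp1 at 1.25 ± 0.25, while Ibsp was listed at 0 throughout. Of the described binding partners of Dlx proteins 6 of 8 lay above and 2 below, led by Maged1 (639 ± 77.9) and Smad4 (10.6 ± 2.29), with Gata1 lowest at 0.244 ± 0.082. A list of 16 other homeobox genes of the NK-like subclass, to which the Dlx family belongs, covered a part of it and left out the Nkx genes. Of the 16, 2 lay above, Emx2 (6.95 ± 1.11) and Msx1 (3.56 ± 1.22), 10 below and Msx3, Bsx, Tlx2 and Tlx3 were listed at 0. Msx1 and Msx2 stand in 3 of these lists.

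The labelled cell type was checked on 12 neural progenitor genes. Of these 11 lay above 1 FPKM, led by Prom1 (88.1 ± 11 FPKM) and Pax6, and Hes5 was called neither way at 0.990 ± 0.329. Markers of other cells in which Dlx genes are known are given by the same counts, to be read against the 52.3% above and 41.4% below over all genes tested. Surface ectoderm genes counted 8 of 12 above and 2 below, with Krt18 (62.3 ± 11.8) and Cdh1 (25.2 ± 5.67) highest and Krt5 lowest (0.181 ± 0.102). Placode genes counted 5 of 15 above, a smaller share than over all genes, and 5 below, with Eya2 (20.2 ± 4.9) and Eya1 (6.77 ± 1.42) highest and Foxi3 at 0. Neural crest genes counted 8 of 10 above and 2 below, with Sox9 (19.2 ± 4.12) and Tfap2b (13.3 ± 3.82) highest and Foxd3 above 0 in replicate 5 alone, at 0.0199. Mesenchyme genes counted 8 of 12 above and 1 below, with Lum (42.6 ± 21.9) and Alx1 highest and Dcn (0.628 ± 0.197) lowest. Trophoblast genes, relevant to Dlx3 and Dlx4, counted 1 of 9 above and 8 below. The 1 above was Synb (5.45 ± 1.62), Elf5 stood at 0.337 ± 0.185, and Cdx2 was above 0 in replicate 4 alone, at 0.0171. In bulk RNA fewer cells of a type and less RNA per cell cannot be told apart, and which cells carried the Dlx transcripts was not tested.

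The libraries in which Dlx genes were high were not the same for each member. Of the 4 members whose mean reached 1 FPKM, Dlx4, Dlx5 and Dlx6 were highest in replicate 2, as were 22.6% of the 10983 genes at that level, and Dlx3 was highest in replicate 3, as were 21.9%. Dlx3 and Dlx5 were lowest in replicate 1, as were 35.0% of these genes. Dlx5 alone of the 4 was both highest in replicate 2 and lowest in replicate 1, a pattern of 6.26% of genes, and Dlx3 alone both highest in replicate 3 and lowest in replicate 1, a pattern of 8.32%. From its own mean on the log2 scale Dlx5 deviated by 0.73 in replicate 2 and by -0.55 in replicate 1, Dlx6 by 0.55 in replicate 2 and by -0.37 in replicate 3, and Dlx3 by 0.35 in replicate 3 and by -0.33 in replicate 1. The SD of these log2 values was 0.47 for Dlx5, larger than for 97.0% of these genes, whose median was 0.16, and 0.34 for Dlx6, 0.28 for Dlx3 and 0.15 for Dlx4. The added 1 FPKM shrinks the spread of genes near that level, and on the FPKM scale Dlx6 varied more than Dlx5, with a coefficient of variation of 47.4% against 36.5% and a highest value 3.28 times the lowest against 2.51 times.

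Marker lists moved with the libraries too. The summed FPKM of the surface ectoderm list was 122, 186, 171, 128 and 127 in replicates 1 to 5, highest and lowest in the same libraries as Dlx5. Of its 8 genes whose mean reached 1 FPKM, 6 were highest in replicate 2, against 22.6% of all genes at that level. Of the 8, 4 were also lowest in replicate 1, against 6.26% of all genes at that level: Grhl2, Grhl3, Epcam and Cdh1. The placode list summed to 34.8, 51.7, 57.5, 42.7 and 45.0 FPKM, the order of Dlx3 at both ends. Of its 6 genes at that level 3, among them Eya2, were highest in replicate 3 and lowest in replicate 1, a pattern of 8.32% of all genes at that level. The mesenchyme list summed to 49.0, 84.5, 176, 142 and 144 FPKM, with 9 of 11 genes in that pattern, and the neural crest list to 41.0, 61.0, 91.3, 79.2 and 81.3, with 4 of 8. The neural progenitor list summed to 321, 319, 274, 318 and 315 FPKM, lowest in replicate 3. The part of these cell types in the Dlx values was not tested, and with 5 libraries no correlation is given.

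**Figure D4:**
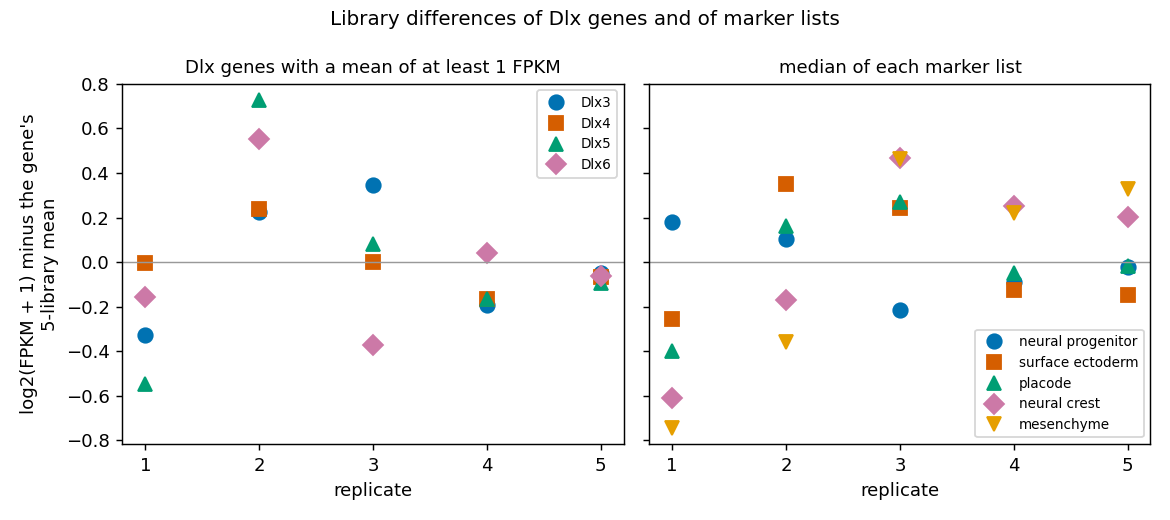
Difference of log2(FPKM + 1) from the gene's own 5-library mean in each replicate, for the 4 Dlx genes whose mean reached 1 FPKM (left) and as the median over list members at that level (right). Dlx5 reaches 0.73 in replicate 2 and -0.55 in replicate 1, and the surface ectoderm list has its highest median, 0.35, and its lowest, -0.26, in the same libraries. The placode, neural crest and mesenchyme lists also have their lowest median in replicate 1.

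The genes whose library pattern was most like that of each member were ranked by the root mean square difference of the centred log2 values over the 5 libraries, among genes whose mean reached 5 FPKM. For Dlx5 they were Sgpp2 (0.046), Cldn7 (0.062), Mt2 (0.068), Cldn9 (0.081) and Mt1 (0.081), against a spread of Dlx5 itself of 0.418 on that measure. Cldn7, a tight junction claudin, was listed at 14.3, 36.7, 25.8, 20.5 and 21.3 FPKM, the same order of libraries as Dlx5. Dlx6, the partner of Dlx5, differed from it by 0.295 (place 174 against 7582 genes), more than Dlx3 of another locus did, at 0.274 (place 111). Dlx3, Dlx4 and Dlx6 lie below 5 FPKM and were not among the ranked genes, so their places show where their differences would fall. Measured from Dlx6, Dlx5 took place 3035 of 7583, after Dlx4 at place 1211 (0.246), and 0.295 was close to the spread of Dlx6 itself, 0.307. The added 1 FPKM shrinks the spread of Dlx6 and Dlx4 far more than that of Dlx5, and Dlx4 itself spread by only 0.132. The order of Dlx4 and Dlx5 seen from Dlx6 is thus tied to that scale. It does not show that Dlx6 follows Dlx4 more closely than its partner. For Dlx3 the nearest were Angptl4 (0.018), Ndrg2 (0.061), Lyrm7 (0.061), Eya2 (0.070) and Acer2 (0.072), with Dlx4 at 0.212. Those for Dlx6 were Ddit4l (0.063), Xrcc3 (0.081), Zcwpw1 (0.093), Asap1 (0.094) and Acot8 (0.095), and for Dlx4 they were Cep250 (0.032), Cttn (0.033), Dnajc4 (0.037), Smarce1 (0.038) and Homez (0.038). With 5 libraries many genes share a pattern, so these names are a description only.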

How the data were processed

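RNA of 5 libraries was measured by single-end sequencing of 75 bases, from cDNA made with a poly-dT primer and template switching and amplified by 12 and then 15 PCR cycles, per the labels' protocols. The authors deposited 1 table of FPKM. Tools listed without role or order in the submitters' processing notes are Cuffdiff 2.2.1, TopHat2 2.0.11, cutadapt and CASAVA 1.8, with mm10 as genome build. The annotation release is not given in the sources used here. Every value column was matched to its sample by replicate number. Since an exact 0 may be a failed estimate, such genes are described as listed at 0. The labels give an average of 35 M reads per sample.

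The members and gene lists were chosen with earlier results of these data known, so no test is given for the members. For all genes with a value above 0 in any library, log2(FPKM + 1) was tested with limma 3.58.1 (R 4.3.3), two-sided with a variance trend, against 1 FPKM, with Benjamini-Hochberg adjustment over 19706 genes and a threshold of 0.05. The test was also run on simulated data with independent normal noise in each library, and the outcome is not given here. Such data cannot check the calls if the replicates are technical. Relative depth came from ratios of values under 0.3 FPKM, and totals from single-transcript genes under 0.15 FPKM and over 800 bases, with 200 bases taken off each length. Implied reads use GENCODE M21 lengths, which the authors may not have used. Homeobox sequences are from GENCODE M21 transcripts.

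Named genes are the 6 members, the 2 highest and the lowest of each list, the 2 nearest genes on each side of a locus and the 5 genes with the most similar library pattern. Others, such as Gsx2, Gad1, Gad2, Hand2, Ednra, Edn1 and the homeobox genes beside Dlx5 in rank, were named after their values were seen. Alternatives were other pseudocounts, rescaling, filters, levels and variance settings, and leaving out each replicate.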

Additional observations from a re-analysis of the deposited data

Results flagged for a closer look

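Among 82 genes and differences examined, 7 genes had 1 library whose gap to its nearest neighbour took up more than 0.71 of the range over the 5 libraries, Dixon's 95% limit for 5 samples. No Dlx gene and no difference between Dlx genes or loci was among them, and such a test marks about 1 in 20 groups by chance alone. Gsx1, Foxd3 and Cdx2 were each above 0 in a single library, so the gap was the whole range (1) in replicates 1, 5 and 4. For Tac4, the neighbour of Dlx4, the share was 0.778, with 0.208 FPKM in replicate 1. For Cep250, nearest to Dlx4 in library pattern, it was 0.777, with 6.79 FPKM in replicate 2. Gli3 reached 0.772 with 34.1 FPKM in replicate 3, and Eya1 reached 0.726 with 4.34 FPKM in replicate 1.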

How the results depend on the processing

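No difference between Dlx genes or loci changed direction under another pseudocount, under rescaling or without any 1 replicate. Sizes depended on the pseudocount. With 0.5 and 0.1 FPKM, Dlx1 minus Dlx2 was -0.35 and -1.12, Dlx5 minus Dlx6 was 3.92 and 4.32, Dlx5/6 minus Dlx1/2 was 5.22 and 6.46, and Dlx3/4 minus Dlx1/2 was 2.44 and 3.54. Rescaled to a sum of 1000000 FPKM, the last was 2.03 and the mean of Dlx4 was 1.62 FPKM. The counts above 1 FPKM stayed within 1.5 times, except that 2 bone genes lay above at a level of 0.5 FPKM and after rescaling to that sum. With a mean of at least 0.1 FPKM required, which removes low genes from the test, the counts below were 4 for ventral forebrain, 3 for GABA neuron, 3 for arch, 1 for neural crest, 2 for bone, 2 for trophoblast and 3 for NK-like genes. At a level of 2 FPKM they were 1 for neural progenitor, 8 for placode, 5 for surface ectoderm and 4 for mesenchyme genes, and at 0.5 FPKM 1 for upstream signals, 0 for mesenchyme (also 0 after rescaling to 1000000 FPKM, Dcn being called neither way) and 1 for binding partners. Leaving out 1 replicate gave 1 to 2 neural crest genes below, the 1 without replicate 5, in which Foxd3 had its single value. Differences between genes were taken within each library, and samples could not be paired between groups because the design has 1 group. Without replicate 2 the mean of Dlx1 fell from 0.0229 to 0.0130 FPKM. In the 3385-base transcript of Dlx1, its values below 0.03 FPKM stand for at most 2 reads.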
